A study of Mus musculus with 9 samples.

Results

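Cytosolic ribosomal protein genes were taken as the rows whose symbol is Rpl or Rps with a number (and at most the letter a, x or l after it), or Rplp0, Rplp1, Rplp2 or Rpsa. Symbols of pseudogenes with -ps were left out. The rule found 83 genes among 54532 gene rows, 51 of the large and 32 of the small ribosomal subunit, and none stood on more than 1 row. In GENCODE M21, 80 of them are protein coding, while Rpl32l, Rpl6l and Rps4l are annotated as pseudogenes.

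The libraries are bulk RNA-seq of whole subcutaneous tumours, 16 days old, that the mouse melanoma line B16-F10 formed in C57BL/6 hosts, so host cells are present too. The injected cells carried hairpin 1 against Fbxo38 (shFBXO38#1), hairpin 2 against Fbxo38 (shFBXO38#2) or a control hairpin (shcontrol), with 3 libraries in each group and no other treatment. The product of Fbxo38 is an F-box protein that picks the substrates of a ubiquitin ligase, and the study asked what its knockdown does to the tumour transcriptome. Groups follow the sample titles, because the genotype labels of the 6 knockdown libraries run from FBXO38 to FBXO43. Whether the replicates are separate mice is not stated, and p-values here reflect only how far these libraries vary.

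Fbxo38 itself checks those labels. It had 35.1, 20.99 and 22.04 CPM (counts scaled to 1000000 per TMM-adjusted library) in the libraries labelled hairpin 1, 20.96, 11.4 and 11.9 CPM with hairpin 2, and 21.7, 31.3 and 30.8 CPM with the control hairpin. The libraries labelled hairpin 1 overlapped the controls, and every hairpin 2 library stood below every control. Against control its log2 fold change was -0.10 ± 0.28 (SE; edgeR adjusted p = 1.00; exact permutation p = 0.9) with hairpin 1 and -0.92 ± 0.29 (SE; edgeR adjusted p = 0.254; exact permutation p = 0.1, the smallest that 3 against 3 libraries allow) with hairpin 2. Every direction given for hairpin 1 therefore rests on libraries in which the targeted transcript was not measurably lower.

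Library totals were 15322163 to 17342554 counts. Melanoma markers (7 of 7 measured, summed) were at 21563 to 25836 CPM in libraries labelled hairpin 1, 20473 to 25709 CPM with hairpin 2 and 21374 to 26930 CPM in controls, with all 7 present in every library. Fibroblast and matrix markers (7 of 7) ranged from 247 to 3275 CPM, 271 to 1390 CPM and 171 to 412 CPM in those groups, with the highest value in hairpin 1 replicate 1. Erythroid markers (5 of 5) ranged from 1033 to 1489 CPM, 421 to 21462 CPM and 2539 to 4967 CPM, with the highest value in hairpin 2 replicate 2. Leukocyte markers (9 of 9) stayed between 32.3 and 274 CPM in all 9 libraries, and Krt5, Krt14 and Krt1 of the 4 keratinocyte markers had no count in any.

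Each ribosome holds 1 copy of nearly every ribosomal protein, so cells make these proteins in step with each other and with ribosomal RNA. Their messenger RNAs begin with a terminal oligopyrimidine tract, a C followed by a run of pyrimidines at the cap, which the RNA-binding protein LARP1 recognises and through which mTOR signalling sets their translation. Growing tumour cells carry much of this RNA. Such short, abundant messages have left many processed pseudogenes in the genome that resemble the parent closely. Counts of RNA do not show translation.

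Pyrimidine runs were read around RefSeq start sites (GRCm38.p6). A promoter was at hand for 61 of the 83 symbols, in 73 entries. The 30 bases around the annotated start, 15 on each side, are printed for 6 genes because they are genes the results turn on or compare, and capitals mark the longest run of C or T anywhere in the window, which need not begin at the start.
Rpl7a: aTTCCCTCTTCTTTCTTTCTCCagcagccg
Rps21: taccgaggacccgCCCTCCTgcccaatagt
Rpl28: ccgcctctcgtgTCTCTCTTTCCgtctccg
Rps27: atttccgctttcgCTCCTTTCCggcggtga
Rps10: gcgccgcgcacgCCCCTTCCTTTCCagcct
Rplp0: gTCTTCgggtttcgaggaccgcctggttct
Those windows lie at chr2:26910792-26910821 (Rpl7a, plus strand), chr2:180257364-180257393 (Rps21, plus strand), chr7:4792950-4792979 (Rpl28, plus strand), chr3:90213634-90213663 (Rps27, minus strand), chr17:27635230-27635259 (Rps10, minus strand) and chr5:115559452-115559481 (Rplp0, plus strand). The run was longest in Rpl7a, at 21 bases, and reached 13 bases in Rps10, 11 in Rpl28, 9 in Rps27, 7 in Rps21 and 5 in Rplp0. Rps21 has another annotated start, not printed, whose window (chr2:180257434-180257463) held a longest run of 4 bases. A run of at least 7 pyrimidines lay in 47.9% of the 73 family windows and in 18.6% of all 32851 promoters. A C at the annotated first base, followed by at least 4 C or T, stood in 14 of the 73 family entries (19.2%) and in 2.51% of all promoters. In the 300 bases from 250 before to 50 after the start, the letters CCGGAAG, the core bound by ETS-family factors, stood on either strand in 35.6% of family promoters and 8.86% of all, and CTCTTTC stood on the sense strand in 20.5% and 3.99%. The TATA box letters TATAAA were on the sense strand in 8.22% and 8.32%. Matches to letters are a description and not sites.

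The family took 4.84%, 4.07% and 4.58% of the counts in the libraries labelled hairpin 1, 4.04%, 4.21% and 4.26% with hairpin 2, and 4.40%, 4.09% and 4.34% with the control hairpin. The means were 4.50% ± 0.390 in hairpin 1, 4.17% ± 0.116 in hairpin 2 and 4.28% ± 0.167 in controls (SD, n = 3 each). All 3 groups overlap, and hairpin 1 holds both the highest and one of the lowest shares. The difference from control was 0.222 percentage points for hairpin 1 and 0.0518 without hairpin 1 replicate 1, or 0.435 without hairpin 1 replicate 2 and 0.127 without control replicate 2. It was -0.105 points for hairpin 2, and -0.0396 without hairpin 2 replicate 1, -0.0425 without control replicate 1 and -0.200 without control replicate 2. In bulk tissue, fewer cells of a type and less RNA per cell cannot be told apart. The ratio of large-subunit to small-subunit counts was 1.51 ± 0.0536 in hairpin 1, 1.52 ± 0.0204 in hairpin 2 and 1.54 ± 0.0162 in controls (SD, n = 3 each), and the groups overlap.

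**Figure D1:**
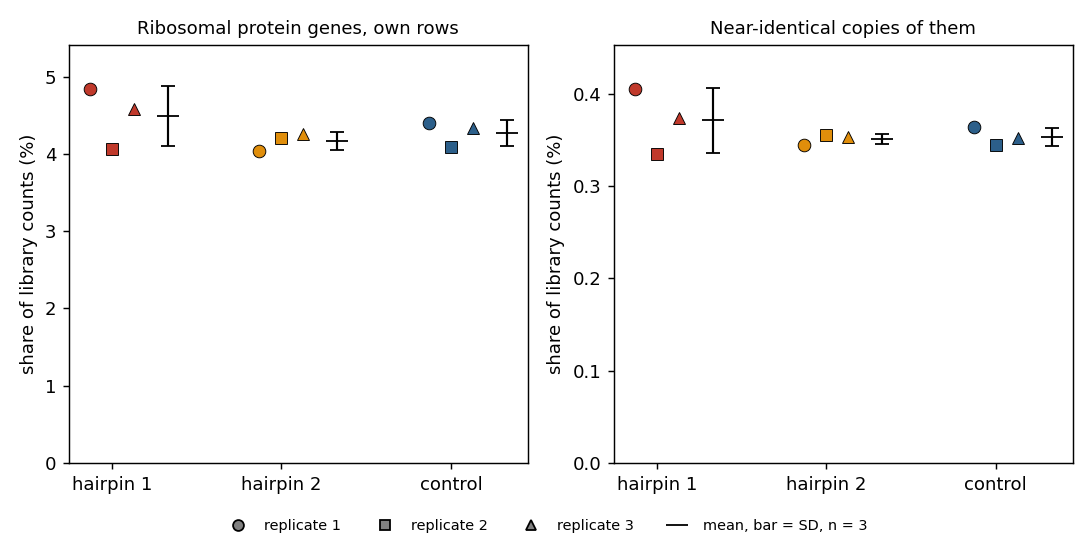
Share of each library's counts (%, vertical axis from 0) on the ribosomal protein genes (left) and on rows of near-identical copies of them (right), by group, with a point per library, a line for the mean and a bar for the SD (n = 3). Hairpin 1 replicate 1 is the highest library in both panels, at 4.84% and 0.405%, and the 3 groups overlap.

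A low-count filter kept 79 of the 83 genes. The highest were Rplp0, the base of the ribosomal stalk that recruits translation factors, Rpsa, a small-subunit protein also known as the laminin receptor precursor, and Rps2, a small-subunit protein at the messenger RNA entry, at 2004, 1902 and 1815 CPM over all libraries. Means of at least 1000 CPM were reached by 10 genes and of at least 100 CPM by 68. Per kilobase of transcript, where levels of different genes can be compared, the highest were Rplp1, the acidic stalk protein, at 3059 CPM per kb, Rpl8, next to the catalytic centre of the large subunit, at 1968, and Rps2 at 1819. The lowest tested rows were Rps4l at 1.62 CPM, Rps10 at 6.66 CPM and Rpl24 at 12.1 CPM. Rpl10l, a testis paralog of Rpl10, had no count in any library, and Rpl3l (the striated-muscle paralog of Rpl3), Rpl39l and Rpl32l averaged 0.117, 0.146 and 0.151 CPM. Their partners were abundant, with Rpl3 at 1318, Rpl10 at 772, Rpl39 at 143 and Rpl32 at 835 CPM on average. Rpl6l and Rps4l stood at 57.3 and 1.62 CPM beside Rpl6 at 1164 and Rps4x at 1018 CPM. Rpl6l is 98.7% identical to Rpl6 over 98.1% of its coding sequence, so the rows of Rpl6l and Rpl6 may share counts.

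Most members varied little. The highest library was less than 2 times the lowest for 73 of 79 genes, and the median of that ratio was 1.40. Within groups the median SD of the log2 level was 0.126 over the 76 members above 30 CPM, and 0.162 over all 6336 tested genes above 30 CPM. These sets were not matched for level, and 68 members averaged at least 100 CPM. Against the family median in each library, 67 of 79 genes had r above 0.5 over the 9 libraries and 3 had r below 0 (Rpl7a at -0.60, Rps10 at -0.08 and Rpl17 at -0.02). With near-identical copies summed, r was -0.46 for Rpl7a, 0.72 for Rps10 and 0.68 for Rpl17. Those correlations share the libraries and their scaling and are given as a description.

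**Figure D2:**
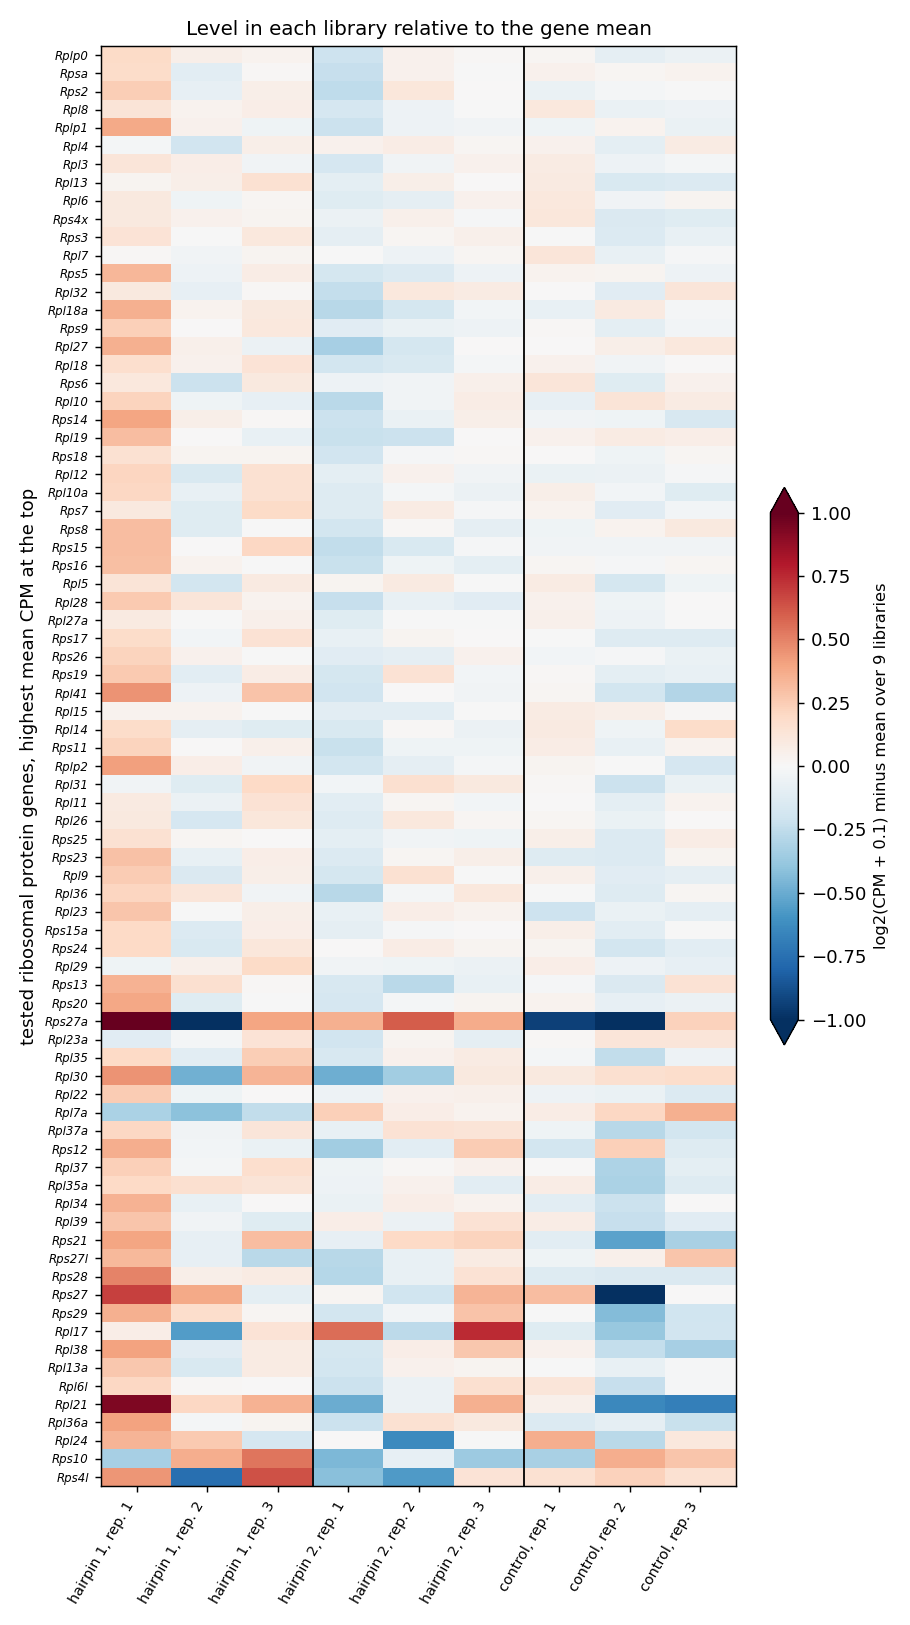
Level of each tested ribosomal protein gene in each library, as log2(CPM + 0.1) minus the gene's mean over 9 libraries (colour scale, -1 to 1), with genes down the page from the highest mean CPM and the groups separated by vertical lines. Hairpin 1 replicate 1 is the highest library for 58 of 79 genes and hairpin 2 replicate 1 the lowest for 41, and Rpl7a runs against the others.

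Library by library, the median deviation of the 79 genes from their means was 0.23, -0.03 and 0.06 (log2) in the libraries labelled hairpin 1, -0.16, -0.02 and 0.01 with hairpin 2, and 0.02, -0.08 and -0.02 in controls. Hairpin 1 replicate 1 and hairpin 2 replicate 1 were the extremes, so each group median rests in part on 1 library. Hairpin 1 replicate 1 also held the highest fibroblast and matrix markers (3275 CPM), whose part in the result was not tested, and the highest mitochondrial share (6.29%). Of the counts left without mitochondrial and globin genes, the family took 5.17% there, still the highest library, and 4.70% on average in hairpin 1 against 4.43% in controls, a difference of 0.271 points. Across genes outside the family, the deviation of a library correlated with transcript length at rho = -0.31 in hairpin 1 replicate 1, 0.31 and 0.32 in hairpin 2 replicates 1 and 2, and between -0.23 and 0.11 in the other 6 libraries. With GC content it correlated at rho = -0.37, -0.19 and -0.02 in the hairpin 2 libraries, and between 0.07 and 0.15 in all 6 libraries of hairpin 1 and control, so hairpin 2 lay below the other groups.

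In the libraries labelled hairpin 1 against control, most members stood slightly higher, and Rpl7a stood lower. No member passed an adjusted p of 0.05 by edgeR's quasi-likelihood test, nor did any gene (0% of 14193 tested). At an unadjusted p below 0.05, 9 members were higher and 1 lower (Rpl7a), beside 1.85% and 1.32% of all genes, with DESeq2 giving 9 and 1 and limma-voom 9 and 1. Log2 fold changes were positive for 69 of 79 members and 52.6% of all genes, and its median was 0.12 over the members and 0.01 over all genes. In 15 members every hairpin 1 library stood above every control, and in 1 (Rpl7a) every library stood below, beside 4.09% and 4.3% of all genes. Without hairpin 1 replicate 1 the median of the members was 0.04, 48 of 79 were positive and 3 were at an unadjusted p below 0.05. That last count was 4 without control replicate 2 or control replicate 3, and 18 without hairpin 1 replicate 2. With the trends of transcript length and GC content removed, the median was 0.05 over the members and -0.03 over all genes, 60 of 79 members were positive, and 6 were higher and 1 lower at an unadjusted p below 0.05.

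In hairpin 2 against control members lay on both sides of 0, and the balance moved with the correction for length and GC content. Again 0% of genes and no member passed by edgeR, although DESeq2 called 2.13% of all genes and no member. At an unadjusted p below 0.05, 2 members were higher (Rps21 and Rpl17) and none lower, beside 8.14% and 6.27% of all genes, with 2 members by DESeq2 and 1 by limma-voom. Leaving out single libraries gave 0 (without control replicate 2) to 4 (without hairpin 1 replicate 2). A positive value was found for 34 of 79 members, beside 51.5% of all genes, and the medians were -0.02 and 0.01. In 3 members every hairpin 2 library stood above every control and in 8 below, beside 10.6% and 10.2% of all genes, so these shares of members were not above the background. The median of the members was 0.03 without hairpin 2 replicate 1 and 0.01 without control replicate 1. With the length and GC trends removed it was 0.09, beside -0.02 over all genes, 63 of 79 members were positive, and 5 were higher and none lower at an unadjusted p below 0.05.

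Hairpin 2 against hairpin 1 gave the counterpart of the first comparison, and both use the hairpin 1 libraries. By edgeR 0% of genes and no member passed, and DESeq2 called 0.627% of genes and 1 member, Rpl7a. At an unadjusted p below 0.05, 1 member was higher in hairpin 2 (Rpl7a) and 9 lower, beside 6.43% and 5.23% of all genes, with 12 members by DESeq2 and 10 by limma-voom. That total of 10 was 5 without hairpin 1 replicate 1, 4 without hairpin 2 replicate 1 and 20 without hairpin 1 replicate 2. Values were positive for 7 of 79 members, beside 50.2% of all genes, and the medians were -0.11 and 0.00. Hairpin 2 libraries all stood above the hairpin 1 libraries in 1 member and below them in 14, beside 8.31% and 7.67% of all genes. The median was -0.06 without hairpin 1 replicate 1 and -0.06 without hairpin 2 replicate 1. With the length and GC trends removed it was 0.03, beside 0.01 over all genes, 48 of 79 members were positive, and 2 were higher and 1 lower at an unadjusted p below 0.05.

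**Figure D3:**
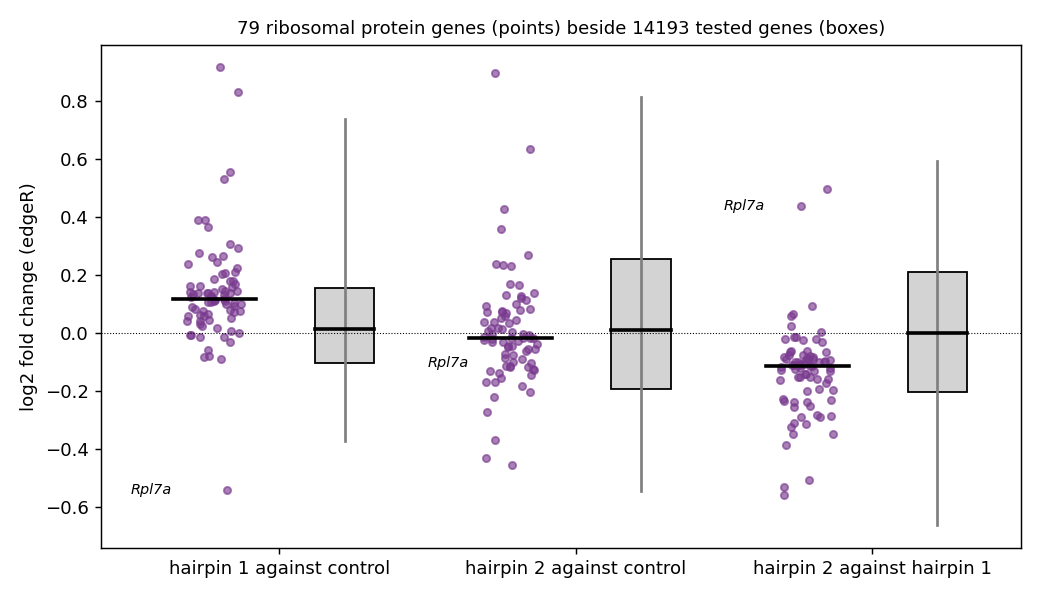
edgeR log2 fold change (vertical axis) of the 79 tested ribosomal protein genes (points, with a bar at their median) in each comparison, beside all 14193 tested genes (box from the 25th to the 75th percentile with the median, line from the 5th to the 95th). The member medians are 0.12, -0.02 and -0.11, and Rpl7a lies at -0.54, -0.10 and 0.44.

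Rpl7a, a large-subunit protein of a family that binds kink-turn RNA, was the member of smallest p in both comparisons that involve hairpin 1. The gene (ENSMUSG00000062647.16) lies on the plus strand of GRCm38 chromosome 2, 26910764 to 26913318, and small nucleolar RNA genes lie within it, of which Gm22879 and Gm24134 overlap its exons. It had 177, 167 and 186 CPM in the libraries labelled hairpin 1, 260, 231 and 226 CPM with hairpin 2, and 232, 255 and 283 CPM in controls. Every library labelled hairpin 1 stood below all 6 others, and hairpin 2 overlapped the controls. Its log2 fold change was -0.54 ± 0.11 for hairpin 1 against control (SE; edgeR p = 0.000404, adjusted p = 1.00; exact permutation p = 0.1, the smallest allowed) and -0.10 ± 0.10 for hairpin 2 (edgeR adjusted p = 0.678; exact permutation p = 0.4). DESeq2 gave the first of these an adjusted p of 0.0558. The value for hairpin 2 against control lay between -0.17 (without control replicate 1 or hairpin 2 replicate 1) and -0.03 (without control replicate 3) when single libraries were left out, and at -0.06 without hairpin 2 replicate 3. Hairpin 2 against hairpin 1 gave 0.44 ± 0.11 (SE; edgeR p = 0.00184, adjusted p = 0.375; exact permutation p = 0.1), and adjusted p = 0.0408 by DESeq2.

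Counts on Rpl7a share sequence with 28 rows of near-identical copies (at least 95% identity over at least 80% of the coding sequence), which held 30.3% of the summed counts. The copies stood at 114, 103 and 95.7 CPM in the libraries labelled hairpin 1, 80.1, 98.4 and 116 CPM with hairpin 2, and 95.2, 82.4 and 92.7 CPM in controls. Summed with its copies Rpl7a had 291, 269 and 282 CPM in the libraries labelled hairpin 1, 340, 330 and 342 CPM with hairpin 2, and 327, 338 and 375 CPM in controls, and hairpin 1 still stood below all other libraries. The fold change was then -0.31 ± 0.09 for hairpin 1 against control (edgeR adjusted p = 1.00) and 0.26 ± 0.09 for hairpin 2 against hairpin 1 (SE; edgeR adjusted p = 0.372).

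**Figure D4:**
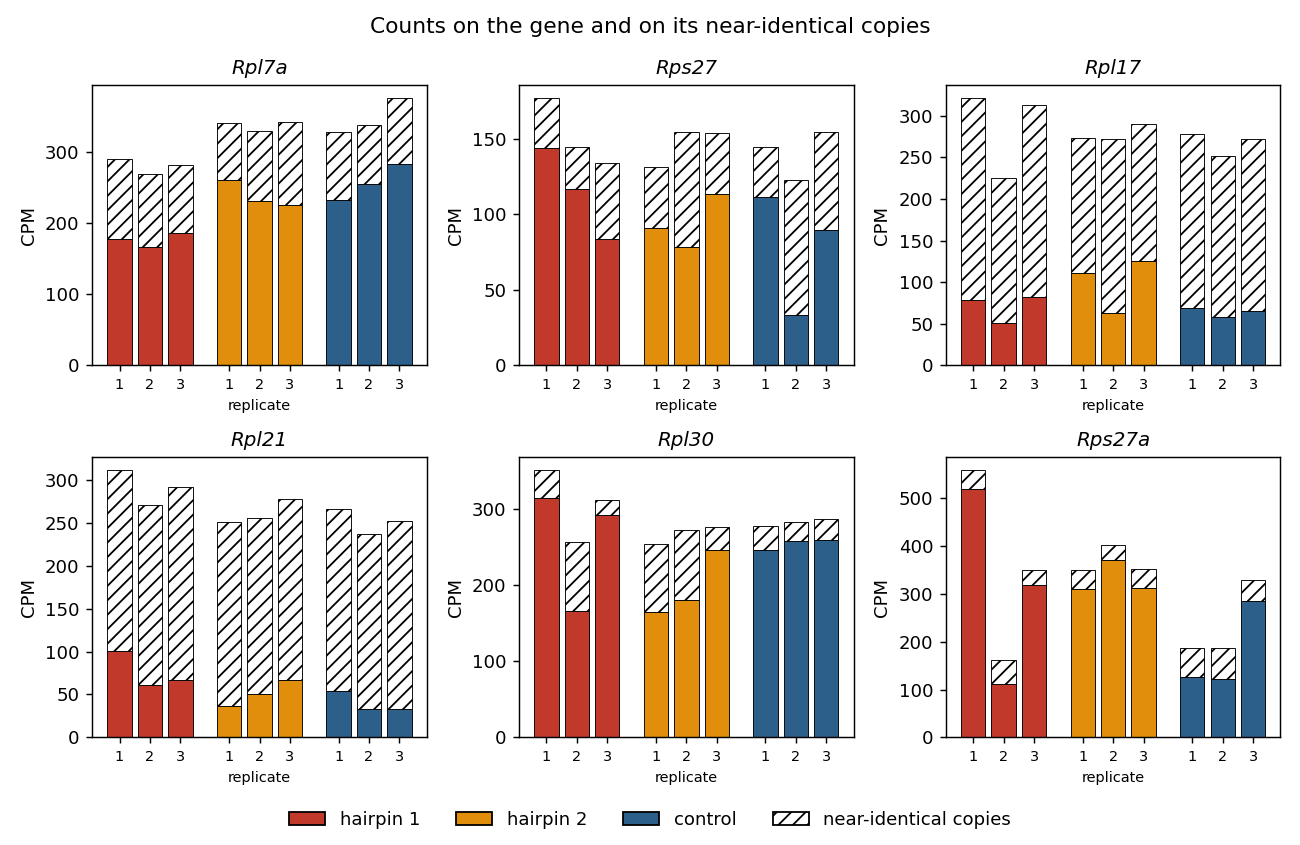
CPM (vertical axes from 0) of 6 ribosomal protein genes in each library, on the gene's own row (coloured by group) and, stacked on it, on its near-identical copies (hatched). The summed bars of Rps27, Rpl17, Rpl21 and Rpl30 vary less between libraries than the coloured parts, Rpl7a stays lowest in hairpin 1, and Rps27a keeps its low libraries.

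The other large fold changes were mostly of genes with such copies, as are most members (74 of the 83, with 547 copy rows in all). Rpl21, a large-subunit protein, had 100.3, 60.5 and 66.7 CPM in the libraries labelled hairpin 1, 37.2, 50.3 and 67.1 CPM with hairpin 2 and 54.4, 33.5 and 32.7 CPM in controls. Every library labelled hairpin 1 stood above every control, and hairpin 2 overlapped both groups. Its log2 fold change for hairpin 1 against control was 0.92 ± 0.29 (SE; edgeR adjusted p = 1.00) and 0.20 ± 0.09 with its 55 copies summed, which hold 79.2% of the counts. For hairpin 2 against hairpin 1 it was -0.56 ± 0.29, and -0.16 with copies, and on the own row -0.30 without hairpin 1 replicate 1 and -0.37 without hairpin 2 replicate 1.

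Rpl17, which lines the exit of the nascent peptide tunnel, had 78.3, 50.8 and 82.1 CPM in the libraries labelled hairpin 1, 110.6, 62.6 and 125 CPM with hairpin 2 and 68.9, 57.7 and 65.6 CPM in controls. Hairpin 2 replicate 2 lay within the controls, the other hairpin 2 libraries above them. The log2 fold change of 0.63 ± 0.26 for hairpin 2 against control (SE; edgeR adjusted p = 0.312) was 0.04 ± 0.13 with 22 copies summed. Against hairpin 1 it was 0.50 ± 0.26, and -0.05 with copies, and on the own row 0.30 without either hairpin 1 replicate 2 or hairpin 2 replicate 3. Its copy Rpl17-ps10, named after its values were seen, had 73.0, 116 and 60.1 CPM with hairpin 2 against 116, 99.3 and 114 CPM in controls.

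Rpl30, known to bind its own transcript in yeast, had 315, 165 and 292 CPM in the libraries labelled hairpin 1, 164, 181 and 246 CPM with hairpin 2 and 247, 258 and 260 CPM in controls. All hairpin 2 libraries stood below all controls, and hairpin 1 was split. Hairpin 2 replicate 3 (246.3 CPM) was only just below control replicate 1 (246.6 CPM). The log2 fold change of -0.37 ± 0.23 for hairpin 2 against control (SE; edgeR adjusted p = 0.481) was -0.09 ± 0.11 with its 12 copies summed, and on the own row -0.56 without hairpin 2 replicate 3. For hairpin 2 against hairpin 1 it was -0.39 ± 0.23, and -0.20 with copies. On the own row it was -0.22 without hairpin 1 replicate 1, -0.63 without hairpin 1 replicate 2 and -0.58 without hairpin 2 replicate 3. Rps27, a zinc-finger protein of the small subunit and partner of the paralog Rps27l, had 144, 117 and 83.7 CPM in the libraries labelled hairpin 1, 90.8, 78.1 and 113 CPM with hairpin 2 and 111, 33.002 and 89.9 CPM in controls. In control replicate 2 its copy Rps27rt stood at 89.3 CPM, against 27.8 to 76.3 CPM in the other 8 libraries, so the own row was lowest where the copy was highest. The SD of the log2 level within groups was 0.606 for Rps27 alone and 0.172 with copies. Rps27l, a p53-inducible paralog with no such copies, had 134, 101 and 89.1 CPM in the libraries labelled hairpin 1 and 104, 111 and 130 CPM in controls, overlapping groups with a log2 fold change of -0.09 ± 0.16 (SE; edgeR adjusted p = 1.00).

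Rps10, a small-subunit protein that is ubiquitinated when ribosomes stall, was almost entirely counted on rows matched as copies. Of these, RPS10-NUDT3 overlaps the exons of Rps10 on the same strand, so it need not be a copy elsewhere in the genome. Rps10-ps2, named after its values were seen, averaged 159 CPM. The own row of Rps10 averaged 6.66 CPM, and its 3 copies held 96.3% of the summed counts. The sum was 204, 194 and 199 CPM in the libraries labelled hairpin 1, 151, 166 and 176 CPM with hairpin 2 and 173, 183 and 163 CPM in controls, so hairpin 1 stood above every other library. Rpl24, a large-subunit protein that forms a bridge between subunits, had 15.04, 14.2 and 10.54 CPM in the libraries labelled hairpin 1, 11.9, 7.57 and 11.8 CPM with hairpin 2 and 15.2, 9.80 and 12.7 CPM in controls, overlapping groups. For hairpin 2 against control the log2 fold change of Rpl24 was -0.27 ± 0.24 (SE; edgeR adjusted p = 0.631). Leaving out single libraries moved it over -0.44 to -0.10. The 4 copies of Rpl24 held 51.7% of the summed counts. With them the value was larger, at -0.44 ± 0.20 (SE; edgeR adjusted p = 0.351). The exons of Rpl24 overlap Gm28037, a row with no count in any library.

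Rps27a encodes ubiquitin fused to a small-subunit protein. Its spread within groups was the largest of the 79 genes, with an SD of the log2 level of 0.774 alone and 0.591 with copies. It had 520, 111 and 319 CPM in the libraries labelled hairpin 1, 311, 370 and 313 CPM with hairpin 2 and 127, 121 and 286 CPM in controls. The low libraries were hairpin 1 replicate 2 and control replicates 1 and 2, and every hairpin 2 library stood above every control. Its log2 fold change was 0.83 ± 0.55 for hairpin 1 against control (SE; edgeR adjusted p = 1.00) and 0.90 ± 0.55 for hairpin 2 (SE; edgeR adjusted p = 0.488), and with 8 copies summed 0.60 ± 0.42 and 0.64 ± 0.42. On the own row, hairpin 1 against control gave 0.26 without hairpin 1 replicate 1 and 1.35 without control replicate 3, and hairpin 2 gave 1.41 without control replicate 3.

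Rps21, a small-subunit protein needed for maturation of its ribosomal RNA, had almost no counts on its copy. It had 173, 124 and 163 CPM in the libraries labelled hairpin 1, 125, 152 and 154 CPM with hairpin 2 and 123, 91.1 and 105 CPM in controls. Every library of either hairpin stood above every control. Hairpin 1 replicate 2 (124.4 CPM) and hairpin 2 replicate 1 (124.7 CPM) were only just above control replicate 1 (122.7 CPM). The log2 fold change against control was 0.53 ± 0.16 for hairpin 1 (SE; edgeR adjusted p = 1.00) and 0.43 ± 0.16 for hairpin 2 (SE; edgeR adjusted p = 0.27). Both comparisons use the same 3 control libraries. Rpl37a, a zinc-binding large-subunit protein, had 253, 214 and 238 CPM in the libraries labelled hairpin 1, 208, 243 and 240 CPM with hairpin 2 and 212, 181 and 193 CPM in controls. Hairpin 1 stood above all controls, only just so in replicate 2 (213.7 CPM, against 212.4 CPM in control replicate 1). Hairpin 2 overlapped the controls, with a log2 fold change of 0.24 ± 0.11 for hairpin 2 against control (SE; edgeR adjusted p = 0.351).

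Between the hairpins, Rpl28 and Rps15 followed Rpl7a in order of the unadjusted p, both lower with hairpin 2. Rpl28, a large-subunit protein, had 494, 550.2 and 535 CPM with hairpin 2 and 695, 632 and 594 CPM in the libraries labelled hairpin 1, and the groups did not overlap. The log2 fold change was -0.28 ± 0.09 (SE; edgeR adjusted p = 0.375) and -0.01 with the length and GC trends removed. Rps15, which sits near the decoding site, had 530, 564 and 622 CPM with hairpin 2 and 779, 628 and 723 CPM in the libraries labelled hairpin 1, again with no overlap. Its log2 fold change was -0.31 ± 0.10 (SE; edgeR adjusted p = 0.375), and -0.07 with those trends removed.

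The stalk proteins and Rpsa had small fold changes. Rplp0 had 2280, 2079 and 2046 CPM in the libraries labelled hairpin 1, 1731, 2063 and 2014 CPM with hairpin 2 and 2026, 1878 and 1920 CPM in controls, so hairpin 1 stood above the controls in all 3 libraries while hairpin 2 overlapped. For hairpin 1 against control Rplp0 gave a log2 fold change of 0.14 ± 0.10 (SE; edgeR adjusted p = 1.00). Rplp1, Rplp2 and Rpsa gave 0.16 ± 0.12, 0.21 ± 0.12 and 0.01 ± 0.10 (SE) for hairpin 1 and -0.08 ± 0.12, -0.05 ± 0.12 and -0.09 ± 0.10 for hairpin 2, none past the threshold.

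Rack1 and Rps3a1 are ribosomal proteins whose symbols the rule does not match, and neither passed the edgeR threshold in any comparison. Rack1, a scaffold on the small subunit, averaged 1852 ± 42.9 CPM in hairpin 1, 1644 ± 112 CPM in hairpin 2 and 1747 ± 98.8 CPM in controls (SD, n = 3 each). Rps3a1, a small-subunit protein, averaged 1095 ± 126 CPM in hairpin 1, 1094 ± 85.0 CPM in hairpin 2 and 1123 ± 54.2 CPM in controls.

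By edgeR no gene of the 6 translation lists passed in any comparison. Among the 101 list entries tested, DESeq2 called Eif3g, Grwd1 and Tsr2 lower in hairpin 2 against control, where it called 2.13% of all genes. It called Tnpo1 higher in hairpin 2 against hairpin 1, where it called 0.627% of all genes. These 4 genes were named after their values were seen. The medians of the log2 fold change are given for hairpin 1 against control, then for hairpin 2 against control. They were 0.06 and 0.04 over 16 other messages with a terminal oligopyrimidine tract, -0.01 and -0.08 over 36 initiation factors, -0.01 and 0.04 over 11 tested elongation and termination factors, and -0.02 and 0.14 over 13 tested regulators of ribosomal protein synthesis. They were -0.09 and -0.09 over 17 tested chaperones and import factors of ribosomal proteins and -0.13 and 0.05 over 8 genes of the ribosomal stress axis. At an unadjusted p below 0.05 by edgeR in hairpin 2 against control, 4 of the 101 list entries tested were higher and 15 lower, beside 8.14% and 6.27% of all genes. Some genes, such as Eef1a1 and Eef2, stand in more than 1 list. The entries are therefore not separate genes, and these totals can count a gene more than once, unlike the percentages of all genes. None was higher and 8 lower among the initiation factors, 2 and 4 among the chaperones and import factors, none and 2 among the elongation and termination factors, 1 and 1 among the other tract messages, 1 and none in the stress axis, and none among the regulators.

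Among their most abundant genes, Eef1a1, which delivers aminoacyl-tRNA, averaged 9190 ± 232 CPM in hairpin 1, 9946 ± 658 CPM in hairpin 2 and 9270 ± 802 CPM in controls. Eef2, the translocase, averaged 5665 ± 134 CPM in hairpin 1, 5430 ± 461 CPM in hairpin 2 and 5275 ± 245 CPM in controls. Eif4g2 and Eif4g1, initiation scaffolds, gave log2 fold changes of -0.13 and -0.01 for hairpin 1 and 0.03 and 0.01 for hairpin 2. Larp1, the binder of the pyrimidine tract, and Eif4ebp2, a repressor of cap binding, gave -0.06 and -0.02 for hairpin 1 and 0.14 and 0.33 for hairpin 2. Kpnb1, an importin, and Btf3, of the nascent-chain complex, gave -0.11 and 0.02 for hairpin 1 and 0.01 and -0.12 for hairpin 2. Cdkn1a and Trp53, a p53 target and p53 itself, gave 0.02 and -0.20 for hairpin 1. For hairpin 2 they gave -0.55 ± 0.26 and -0.37 ± 0.20 (SE; edgeR adjusted p = 0.372 and 0.411). In both genes the hairpin 2 libraries overlapped the controls.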

How the data were processed

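Bulk tumour RNA was sequenced as 9 libraries. The authors deposited 1 file of raw counts by gene symbol per library. The submitters' processing notes list STAR 2.7.0d, Cufflinks, GRCh38 and hg38, while the symbols are those of mouse genes. How reads were assigned, with which annotation and whether by strand, is not given in the sources used here, so a gene, its near-identical copies and overlapping genes may share counts. Tests used the quasi-likelihood method of edgeR 4.0.16 (R 4.3.3; filterByExpr with minimum count 10 and minimum total 15, TMM scaling, robust quasi-likelihood fit of 9 libraries in 3 groups, Benjamini-Hochberg adjustment over 14193 genes, threshold 0.05). CPM values use TMM-scaled library sizes. Exact two-sided permutation tests used log2 CPM.

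Members, lists and tests were chosen with earlier results of these data known. Genes named were Rpl7a, the 3 members of smallest p and the largest fold changes above 10 CPM per comparison, the highest and lowest members, paralogs, the stalk genes and Rpsa, and the 2 most abundant genes of each list. Near-identical copies were found with blastn against GENCODE M21 transcripts. Alternatives were other scalings and filters, DESeq2 1.42.0, limma-voom (limma 3.58.1), a replicate block, fits of 2 groups, trends of length and GC content removed and dropping each library in turn. Chosen after seeing the data were dropping hairpin 1 replicate 1 with hairpin 2 replicate 2, dropping mitochondrial and globin genes, and summing members with copies. The edgeR steps were checked on simulated counts. Files hold only counts, and no library was left out. One list of ribosomal proteins outside the symbol rule is not reported here as a list.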

Additional observations from a re-analysis of the deposited data

Results flagged for a closer look

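Rows of near-identical copies lie outside the symbol rule and were summed per parent gene. Of the 31 such sums with a control mean of at least 30 CPM, 4 were higher in all 3 libraries labelled hairpin 1 than in all 3 controls and none lower, beside 4.09% and 4.3% of all tested genes. With hairpin 2, 1 was higher and 1 lower, beside 10.6% and 10.2%. The copies of Rpl7a averaged 104 CPM in the libraries labelled hairpin 1 and 90.1 CPM in controls, opposite in direction to the row of Rpl7a itself. Their lowest hairpin 1 library, at 95.7 CPM, barely exceeded their highest control, at 95.2 CPM. The copies of Rps10, with the overlapping row RPS10-NUDT3 among them, averaged 191 CPM in hairpin 1 and 166 CPM in controls. Those of Rpl23a averaged 129 CPM and 103 CPM, with the lowest hairpin 1 library at 111 CPM and the highest control at 109 CPM. For Rplp2 the only copy row is that of another named gene, Wdr89, whose transcript matches the Rplp2 coding sequence. That row averaged 60.1 CPM in hairpin 1 and 50.2 CPM in controls. Its lowest hairpin 1 library, at 50.9 CPM, barely exceeded its highest control, at 50.5 CPM. With hairpin 2 the copies of Rpl9 averaged 90.2 CPM, against 73.8 CPM in controls. The copies of Rps27a were lower, at 39.0, 32.3 and 39.8 CPM with hairpin 2 and 60.3, 65.5 and 43.5 CPM in controls, opposite in direction to the row of Rps27a itself. These differences were not tested.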

How the results depend on the processing

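No member was called under any setting except Rpl7a by DESeq2 in hairpin 2 against hairpin 1 (1 member). Over all genes, hairpin 2 against control gave 303 calls by DESeq2 and 4 with no low-count filter, and hairpin 2 against hairpin 1 gave 89 and 2. Leaving out single libraries gave 0 to 2 calls in hairpin 2 against control and 0 to 1 in hairpin 2 against hairpin 1. With length and GC trends removed, the member medians were 0.092 for hairpin 2 against control and 0.028 for hairpin 2 against hairpin 1, opposite in sign to the values given, and the cause was not tested. Leaving out single libraries moved the member medians over 0.04 to 0.17, -0.06 to 0.03 and -0.18 to -0.06 in the 3 comparisons. Signs of small values turned for Fbxo38 in hairpin 1 (-0.39 to 0.026 without single libraries, 0.0052 without hairpin 1 replicate 3), for Rps27l in hairpin 1 (-0.29 to 0.028 without single libraries, 0.0060 without control replicate 3), for Rpl7a in hairpin 2 against control with trends removed (0.019), and for Rpl17 in hairpin 2 against hairpin 1 with copies summed (-0.050). With the replicate block the medians were 0.11, -0.016 and -0.11 and no gene was called. Deviations of same-numbered libraries from their group means correlated at -0.41 to 0.14, which shows no pairing by number. Means of only 3 libraries cannot exclude such a pairing. Depth of 15322163 to 17342554 counts limits members near 1 CPM.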
